A study of Homo sapiens with 24 samples.

Results

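The genes described here are 40 genes of protein folding in the endoplasmic reticulum (ER) and of the unfolded protein response: ER chaperones, enzymes of disulfide bond formation, factors of ER-associated degradation, stress sensors with their transcription factors, outputs of the stress response, and components of the protein channel and ER membrane. Every array probe annotated to one of these symbols was taken, 52 probes in all. A probe was used where its detection p-value, which on this platform usually sets its signal against negative control beads, was under 0.05 on at least 3 of the 24 arrays. This left 49 probes and 38 of the 40 genes, out of 12895 genes measured. The probes of PDIA3, a disulfide isomerase, and of ERN1, which encodes the stress sensor IRE1, were detected on 0 arrays, so a change in these genes could not be seen.

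The cells were LREX', a human prostate cancer line that grows in the presence of the antiandrogen enzalutamide and expresses a high level of the glucocorticoid receptor. All groups were kept in steroid-depleted medium and exposed for 8 h to 1 of 8 treatments: vehicle, the androgen dihydrotestosterone (DHT) at 1 nM, the synthetic glucocorticoid dexamethasone (Dex) at 10 nM or 100 nM, enzalutamide (Enz) at 10 µM, or Enz with DHT 1 nM, Dex 10 nM or Dex 100 nM. The labels give no Enz dose for the combinations. Each group held 3 arrays, described by the series as biological triplicates, of a single cell line at a single time.

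Proteins of the secretory pathway enter the ER through the SEC61 channel and fold there with the help of the HSP70 chaperone BiP (HSPA5) and its co-chaperones, the lectins calnexin and calreticulin, and the protein disulfide isomerases. Molecules that fail to fold are trimmed by the EDEM mannosidases and returned to the cytosol for degradation through a complex of SEL1L and the ubiquitin ligase SYVN1. Unfolded protein in the ER is sensed by IRE1, PERK and ATF6, which act through XBP1, ATF4 and cleaved ATF6 to induce chaperones, degradation factors and, under lasting stress, the proapoptotic factor DDIT3 (CHOP). Prostate epithelium is a secretory tissue with a high load of such proteins.

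The ER stress response element (ERSE), which ATF6 and NF-Y bind together, is the classical control element of the chaperone genes. Promoter windows from RefSeq (GRCh38.p14), running from 250 bases before to 50 bases after each start, were available for 37 of the 40 genes (49 windows). PDIA3, DERL1 and DERL3 were among those not matched. The letters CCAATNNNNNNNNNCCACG (ERSE), searched on both strands, were in the windows of 8 of the 37 genes (21.6%) and in 0.0769% of all 35116 windows. ATTGGNCCACG (ERSE-II) was in those of HYOU1 and SDF2L1 (5.41% of the genes, 0.0541% of all windows). The gene shares count a gene if any of its windows matched. Counted by window, as for all windows, ERSE was in 10 and ERSE-II in 2 of the 49 member windows. The matches are shown because they mark the members with the textbook element, whose responses are set against those of the other members further on; capitals mark the fixed letters of the motif, and each sequence reads 5′ to 3′ on the strand named.

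HSPA5 ERSE, chr9:125241391-125241409 (- strand): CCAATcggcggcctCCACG
HSP90B1 ERSE, chr12:103930216-103930234 (+ strand): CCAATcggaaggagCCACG
HSP90B1 ERSE, chr12:103930321-103930339 (- strand): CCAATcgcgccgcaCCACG
CALR ERSE, chr19:12938384-12938402 (- strand): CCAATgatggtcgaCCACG
CANX ERSE, chr5:179698778-179698796 (+ strand): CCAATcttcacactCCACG
PDIA6 ERSE, chr2:10812853-10812871 (- strand): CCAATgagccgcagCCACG
ERO1B ERSE, chr1:236282183-236282201 (+ strand): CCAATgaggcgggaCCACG
XBP1 ERSE, chr22:28800603-28800621 (- strand): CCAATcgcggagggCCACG
CRELD2 ERSE, chr22:49918554-49918572 (- strand): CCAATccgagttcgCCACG
SDF2L1 ERSE-II, chr22:21642114-21642124 (- strand): ATTGGtCCACG
HYOU1 ERSE-II, chr11:119057380-119057390 (+ strand): ATTGGaCCACG
HYOU1 ERSE-II, chr11:119057274-119057284 (+ strand): ATTGGaCCACG

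The windows of HSPA5 and CRELD2 hold an ERSE, and those of DNAJB9 and EDEM2, the members with the largest changes called with DHT or Dex against vehicle, hold none; they are shown to let this be read in the sequence. Each reads 5′ to 3′ along the gene, with an ERSE match in capitals. In the CRELD2 window the element lies on the opposite strand and so appears as its reverse complement.

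HSPA5 promoter window, chr9:125241294-125241593 (- strand): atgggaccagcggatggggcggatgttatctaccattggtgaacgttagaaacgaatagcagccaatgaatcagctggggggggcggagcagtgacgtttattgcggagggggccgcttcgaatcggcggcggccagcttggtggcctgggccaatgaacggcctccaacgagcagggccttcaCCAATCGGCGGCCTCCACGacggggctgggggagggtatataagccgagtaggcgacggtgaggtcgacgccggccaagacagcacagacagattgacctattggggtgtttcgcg
CRELD2 promoter window, chr22:49918384-49918683 (+ strand): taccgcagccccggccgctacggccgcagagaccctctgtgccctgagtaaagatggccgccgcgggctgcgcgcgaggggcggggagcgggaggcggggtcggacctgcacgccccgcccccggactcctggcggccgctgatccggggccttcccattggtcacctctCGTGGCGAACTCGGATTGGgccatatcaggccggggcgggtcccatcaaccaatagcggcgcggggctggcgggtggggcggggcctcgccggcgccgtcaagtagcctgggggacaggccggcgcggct
DNAJB9 promoter window, chr7:108569624-108569923 (+ strand): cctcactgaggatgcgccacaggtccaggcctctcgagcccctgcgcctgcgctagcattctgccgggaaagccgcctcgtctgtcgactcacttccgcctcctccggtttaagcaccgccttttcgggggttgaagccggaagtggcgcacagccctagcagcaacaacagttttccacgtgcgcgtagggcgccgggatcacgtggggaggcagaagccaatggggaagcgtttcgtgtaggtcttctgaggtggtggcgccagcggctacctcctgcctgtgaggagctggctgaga
EDEM2 promoter window, chr20:35147287-35147586 (- strand): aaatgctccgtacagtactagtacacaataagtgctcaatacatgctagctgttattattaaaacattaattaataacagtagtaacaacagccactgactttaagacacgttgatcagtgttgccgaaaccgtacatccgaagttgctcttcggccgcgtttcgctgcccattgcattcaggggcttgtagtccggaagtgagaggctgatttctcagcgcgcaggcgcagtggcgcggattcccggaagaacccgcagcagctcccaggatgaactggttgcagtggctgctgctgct

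**Figure D1:**
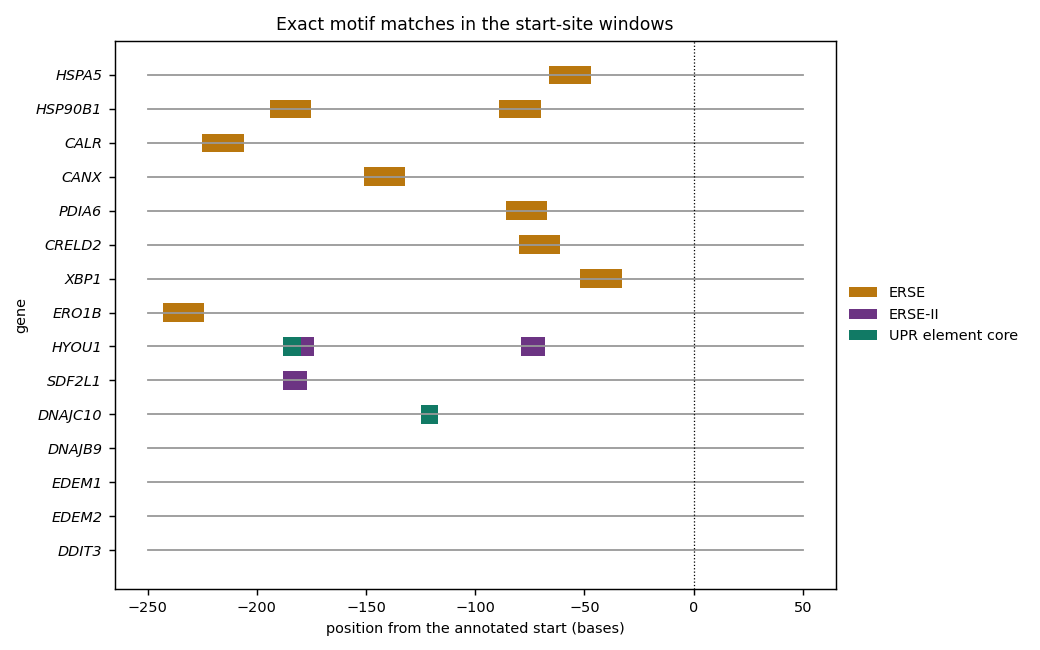
Positions of motif matches in the promoter windows of member genes. The horizontal axis is the distance from the start site in bases (from 250 before to 50 after), and each row is a gene with a match of ERSE, ERSE-II or the UPR element core, or one of 4 called members without; where a gene has several windows, the window with the match is drawn. ERSE matches are in 8 genes and ERSE-II matches in 2, and in the windows drawn they lie before the start; CANX has further windows, and in one of them an ERSE runs from -9 to 10, across that start.

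Further motifs were searched on both strands. TGACGTGG, the core of the UPR element bound by XBP1 and ATF6, was in the windows of DNAJC10 and HYOU1 (0.729% of all windows), and in HYOU1 it overlaps an ERSE-II match. TGATGNAA, the element of C/EBP and ATF4 heterodimers, was in that of CREB3L2 (3.62% of all windows). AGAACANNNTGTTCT, the palindromic element of androgen and glucocorticoid receptors, was in the windows of 0 members and in 0.00285% of all windows. A match describes letters in a window and not a bound site. Only exact matches within these windows were searched, so the lack of a match does not show that an element is absent.

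The hormone treatments were visible in genes outside this group. SGK1, a kinase gene induced by glucocorticoids, rose by 3.46 with DHT, 4.28 with Dex 10 nM and 6.04 with Dex 100 nM on the log2 scale, and fell by 3.60 when Enz was added to DHT. Between 19463 and 21017 probes were detected per array, with a median of 18 to 21 beads per probe, and arrays of a group correlated at 0.992 to 0.995 over genes. Most luminal markers fitted the labelled origin, with 7 of 8 probed genes, among them KRT8, KRT18, CDH1 and HOXB13, detected on all 24 arrays. The luminal keratin KRT19 was detected on only 1 array, and the basal keratins KRT5 and KRT14 on none. Of 3 endothelial markers, PECAM1 and CDH5 were detected on 0 arrays, whereas VWF was detected on all and fell with Dex 100 nM (log2 -0.46 ± 0.10, limma adjusted p = 0.00486). On Enz it fell with Dex 10 nM (-0.46 ± 0.10, limma adjusted p = 0.0171) and with Dex 100 nM (-0.59 ± 0.10, limma adjusted p = 0.000586). The log2 summed signal of the 3 endothelial markers was 8.12 to 8.30 with vehicle, 7.74 to 8 with Dex 100 nM, 8.07 to 8.18 with Enz and 7.64 to 7.66 with Enz and Dex 100 nM. Because PECAM1 and CDH5 were not detected, this sum follows VWF and is not a separate reading. Of 5 stromal markers COL1A1 was detected on all 24 arrays and the others on 4 to 11; of 3 neuroendocrine markers INSM1 was detected on 16, CHGA on 1 and SYP on 0, and of 4 immune markers CD14 on 10 and the others on 0 to 4. The part of VWF in the results below was not tested. The arrays read RNA of whole cultures, in which fewer cells of a type and less RNA per cell cannot be told apart.

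Signals are given on the log2 scale after background correction and quantile normalization, and each gene is given by its brightest probe. Changes are differences of log2 group means, with the standard error of the limma fit after ±. A gene is called, and said to rise or fall, where its limma p-value adjusted over all 12895 genes was under 0.05. The number of arrays, 3 per group, limits the precision: the standard error of a log2 change ran from 0.062 to 0.214 over the members, with a median of 0.084.

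Of the 38 genes, 5 were called in at least 1 comparison: the co-chaperone DNAJB9, the degradation factors EDEM1 and EDEM2, the secreted factor CRELD2 and the stress output DDIT3. The share of all genes called in at least 1 comparison was not counted, so the 5 cannot be set against it. With DHT 1 of 38 members was called, DNAJB9, which rose; of all genes 4.26% were called, 2.45% higher and 1.81% lower. With Dex 10 nM the count was 0 of 38, against 2.19% of all genes. With Dex 100 nM DNAJB9, EDEM2 and CRELD2 rose, 3 of 38, and 0 fell, against 5.06% of all genes (2.88% higher and 2.19% lower). The median change of the members was 0.03 with DHT, 0.04 with Dex 10 nM and 0.05 with Dex 100 nM, and that of all genes was -0.01 in each. Counts this small do not by themselves set the group apart. An unadjusted limma p under 0.05 was found for 13.2% of the members with DHT and 23.7% with Dex 100 nM. The shares of all genes were 13.2% and 16.5%. Changes above 0 were found in 52.6% of the members with DHT, 68.4% with Dex 10 nM and 71.1% with Dex 100 nM. For all genes these were 47.3%, 46.9% and 46.2%. Whether the members differ from other genes as a set was not tested.

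Enz alone left 0 of 38 members called, beside 0.0155% of all genes. Against DHT alone, Enz with DHT gave 2 calls, DNAJB9 lower and DDIT3 higher, where 3.72% of all genes were called (1.22% higher and 2.5% lower). Against the same Dex dose alone, Enz with Dex 10 nM and Enz with Dex 100 nM each gave 0 calls, and 0% of all genes were called in either. Against Enz alone, DNAJB9 and EDEM1 rose with Enz and Dex 100 nM, 2 of 38 beside 3.4% of all genes (2.23% higher and 1.18% lower). Enz with Dex 10 nM gave 0 of 38 (1.08% of all genes) and Enz with DHT 0 of 38 (0% of all genes). Between Dex 100 nM and Dex 10 nM 0 of 38 differed (0.651% of all genes), and between Dex 100 nM and DHT 0 of 38 (2.61%).

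Where 0 members were called by limma, between 0 and 6 of the 38 still had an unadjusted p under 0.05 in the pairwise comparisons: 5 with Dex 10 nM, 3 with Enz, 3 with Enz added to each Dex dose, 0 for Enz with DHT against Enz, 6 for Enz with Dex 10 nM against Enz, 4 between the Dex doses and 4 between Dex 100 nM and DHT. As shares these were 13.2% of the members with Dex 10 nM beside 13.3% of all genes, 7.89% with Enz beside 7.8%, and 15.8% for Enz with Dex 10 nM against Enz beside 9.9%; in the other comparisons of this kind 0% to 10.5% of the members stood beside 3.32% to 11.7% of all genes. Where members were called with Enz present, the share was 13.2% for Enz with DHT against DHT, beside 12.7% of all genes. For Enz with Dex 100 nM against Enz it was 21.1%, beside 14% of all genes. The precision bounds most changes. With DHT, 35 of 38 members had a 95% interval lying wholly within a 1.5-fold change either way, as 81.5% of all genes did. With Dex 100 nM 37 of 38 did, against 79.9% of all genes.

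**Figure D2:**
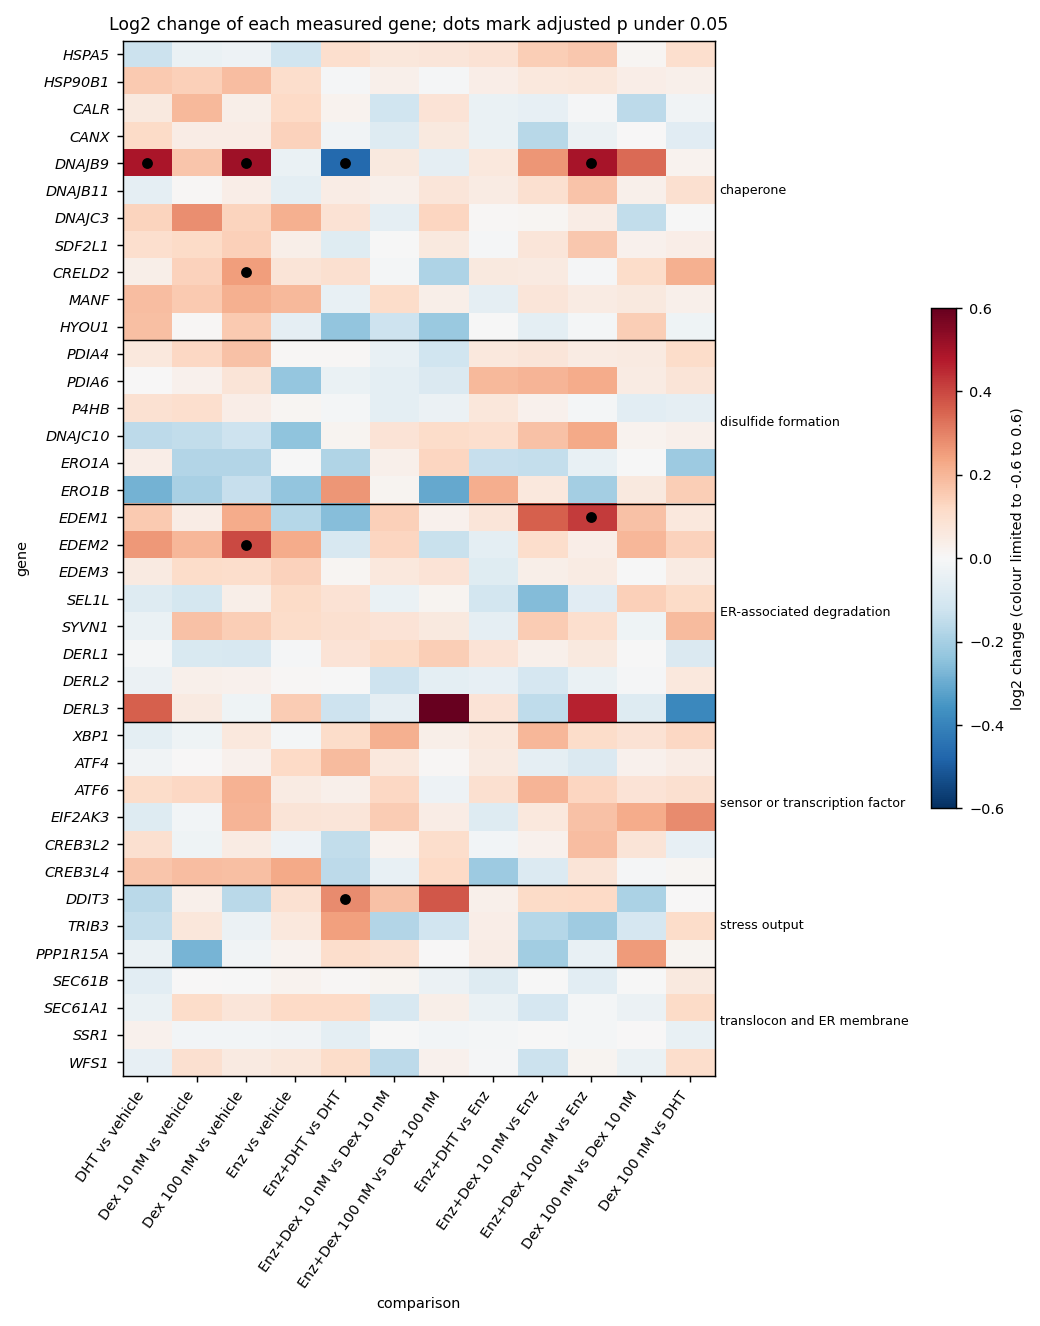
Change of each of the 38 measured members in the pairwise comparisons. Colour gives the difference of group means on the log2 scale, held at the ends of the colour scale beyond it, rows are genes ordered by role, columns are comparisons, and cells with a dot are called at a limma adjusted p under 0.05. The dots mark DNAJB9 in 4 comparisons and EDEM2, CRELD2, EDEM1 and DDIT3 in 1 each.

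Among the chaperones and their partners, 11 genes with 11 measured, DNAJB9 was called in 4 comparisons and CRELD2 in 1. DNAJB9 (ERdj4) is an HSP40 co-chaperone of BiP that binds misfolded protein and is a known XBP1 target. Its log2 signals were 8.89, 8.67 and 8.82 on the vehicle arrays, 9.26, 9.36 and 9.23 with DHT, 9.0, 8.94 and 8.93 with Dex 10 nM, and 9.45, 9.15 and 9.31 with Dex 100 nM. Every array of the 3 steroid groups lay above every vehicle array, and DHT and Dex 100 nM overlapped each other. DNAJB9 rose 1.40-fold with DHT (log2 0.49 ± 0.09, 3 arrays in each group, limma adjusted p = 0.00233) and 1.42-fold with Dex 100 nM (0.51 ± 0.09, limma adjusted p = 0.00151). At Dex 10 nM the difference was 0.17 ± 0.09 (95% interval -0.03 to 0.36, limma adjusted p = 0.471). The step between the Dex doses was 0.34 ± 0.09 and was not called (limma adjusted p = 0.152).

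DNAJB9 was then measured with each steroid in the presence of Enz. Its log2 signals were 8.65, 8.81 and 8.80 with Enz, 8.83, 8.69 and 8.93 with Enz and DHT, 8.82, 9.09 and 9.14 with Enz and Dex 10 nM, and 9.32, 9.18 and 9.25 with Enz and Dex 100 nM. Of the 3 arrays of Enz with DHT, 1 (8.93) lay above every vehicle and Enz array and the others lay within their range, whereas the arrays of Enz with Dex 100 nM stayed above all of these. Enz with DHT was 1.38-fold lower than DHT alone (log2 -0.47 ± 0.09, limma adjusted p = 0.00394), and this comparison shares the DHT arrays with that of DHT against vehicle. Enz with Dex 100 nM was 1.41-fold higher than Enz (0.49 ± 0.09, limma adjusted p = 0.00265) and differed from Dex 100 nM alone by -0.05 ± 0.09 (95% interval -0.25 to 0.14, limma adjusted p = 0.938). The DHT response was smaller with Enz than without it by 0.43 on the log2 scale (-0.43 ± 0.13, 95% interval -0.70 to -0.15). That test of the difference did not pass over all genes (limma adjusted p = 0.141), so the DHT response of DNAJB9 is not shown to differ with Enz. For Dex 100 nM the same difference was -0.015 ± 0.131 (limma adjusted p = 0.986).

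In these 3 interaction terms 0 of 38 members were called. They compared the response to DHT, Dex 10 nM or Dex 100 nM with and without Enz, and 1.81%, 0% and 0% of all genes were called. Unadjusted p-values under 0.05 were found for 5, 5 and 4 members (13.2%, 13.2% and 10.5%), beside 9.21%, 7.78% and 7.61% of all genes. All 4 DNAJB9 calls held when any 1 array of the groups compared was left out. With only the 6 arrays of each comparison in the fit, the DHT call held and the other 3 gave limma adjusted p-values of 0.0505 to 0.0709.

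**Figure D3:**
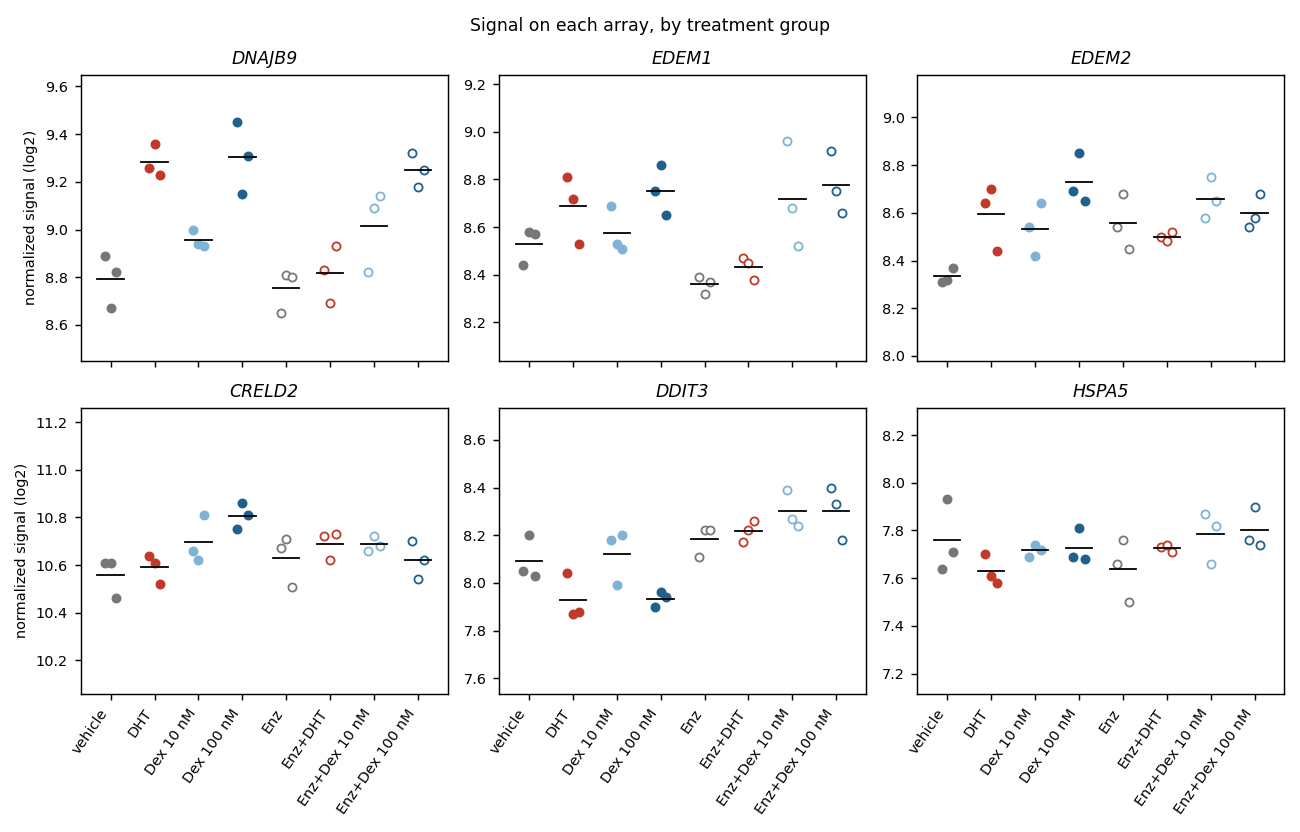
Log2 signal of DNAJB9, EDEM2, CRELD2, EDEM1, DDIT3 and HSPA5 on each of the 24 arrays. The horizontal axis gives the 8 treatment groups, points are arrays (filled without Enz, open with Enz), and bars are group means of 3 arrays. For DNAJB9 the DHT arrays (9.23 to 9.36) lie above the Enz and DHT arrays (8.69 to 8.93), and the Dex 100 nM arrays with and without Enz overlap.

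HSPA5, which encodes BiP and is the standard readout of ER stress, was not called in any comparison. Its log2 signals were 7.64, 7.93 and 7.71 with vehicle, 7.70, 7.61 and 7.58 with DHT, 7.69, 7.74 and 7.72 with Dex 10 nM, 7.69, 7.81 and 7.68 with Dex 100 nM, 7.66, 7.76 and 7.50 with Enz, and 7.73, 7.74 and 7.71 with Enz and DHT. They were 7.87, 7.66 and 7.82 with Enz and Dex 10 nM, and 7.76, 7.90 and 7.74 with Enz and Dex 100 nM. Arrays of all groups overlapped those of vehicle. The difference was -0.13 ± 0.08 with DHT (95% interval -0.30 to 0.04, limma adjusted p = 0.578) and -0.03 ± 0.08 with Dex 100 nM (95% interval -0.20 to 0.14, limma adjusted p = 0.916). HSPA5 was read by a single probe with a mean log2 signal of 7.72. Among the chaperones only CANX (6.90) and DNAJC3 (7.51) were dimmer, and HSP90B1 was at 12.20. How well this probe reads the HSPA5 transcript was not tested.

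CRELD2, a secreted ER protein induced by ER stress with an ERSE in its promoter window, had log2 signals of 10.61, 10.61 and 10.46 with vehicle and 10.75, 10.86 and 10.81 with Dex 100 nM, without overlap. It rose 1.19-fold with Dex 100 nM (log2 0.25 ± 0.07, limma adjusted p = 0.043). The call rests on all 6 arrays: leaving out any 1 of them gave changes of 0.20 to 0.28 with limma adjusted p-values of 0.0522 to 0.193. With Enz and Dex 100 nM the signals were 10.70, 10.54 and 10.62, in the range of the vehicle and Enz arrays (Enz 10.67, 10.71 and 10.51). The difference from Dex 100 nM alone, -0.18 ± 0.07, was not called (limma adjusted p = 0.475). With DHT CRELD2 was at 10.64, 10.61 and 10.52, a difference of 0.04 ± 0.07.

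The other 9 chaperones were called in 0 comparisons. HSP90B1 (GRP94), the HSP90 of the ER, had signals of 12.06, 12.07 and 12.06 with vehicle, 12.29, 12.23 and 12.12 with DHT and 12.25, 12.17 and 12.31 with Dex 100 nM. No array of another group fell as low as those of vehicle (lowest 12.11), yet the differences of 0.16 ± 0.07 with DHT and 0.18 ± 0.07 with Dex 100 nM were not called (limma adjusted p = 0.284 and 0.134). MANF, a secreted ER factor released on calcium loss, was at 11.74, 11.75 and 11.81 with vehicle and 11.97, 12.06 and 11.90 with Dex 100 nM (0.21 ± 0.07, limma adjusted p = 0.0877). It was at 11.90, 11.93 and 12.06 with Enz alone, again above vehicle (0.20 ± 0.07, limma adjusted p = 0.535). Calreticulin (CALR) was at 11.04, 11.18 and 11.35 with Dex 10 nM against 10.95, 11.04 and 10.99 with vehicle, and these groups overlap. DNAJC3, the co-chaperone p58IPK, had the highest change of any member with Dex 10 nM (0.28 ± 0.12, limma adjusted p = 0.328). Over the 11 chaperones the median change was 0.12 with DHT and 0.14 with both Dex doses, and their changes with Dex 100 nM ran from -0.03 to 0.51.

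Vehicle held the lowest of the 8 group means for 12 of 38 members, while it did so for 12.8% of all genes. Among these 12 were HSP90B1, CALR, SDF2L1, CRELD2, MANF and EDEM2. All 4 comparisons with vehicle share its 3 arrays, so their members' medians of 0.03 to 0.05 (Enz alone 0.04, all genes 0.00) are not independent of each other. DHT held the lowest group mean for 8 of 38 members, among them HSPA5, XBP1, ATF4 and DDIT3, and for 13.2% of all genes. The margins of these named genes were small. The DHT mean and the next lowest were 7.63 and 7.64 (Enz) for HSPA5, and 11.53 and 11.57 (Dex 10 nM) for XBP1. They were 13.17 and 13.19 (vehicle and Dex 10 nM) for ATF4, and 7.93 and 7.93 (Dex 100 nM) for DDIT3. Enz with Dex 100 nM held the highest group mean for 10 of 38 members and for 10.7% of all genes. Vehicle held the highest for 2 of 38 members and for 16.8% of all genes.

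In disulfide formation 6 of 7 genes were measured and 0 were called in any comparison. PDIA4, PDIA6 and P4HB are isomerases, DNAJC10 (ERdj5) is a reductase that opens misfolded proteins for degradation, and ERO1A and ERO1B are the oxidases that recharge the isomerases. Their changes ran from -0.28 to 0.09 with DHT and from -0.18 to 0.17 with Dex 100 nM. The lowest value with DHT was that of ERO1B, which lies near background and passed detection on 12 of 24 arrays. DNAJC10 was lower with Enz than with vehicle without a call (-0.24 ± 0.08, limma adjusted p = 0.524). A second, dimmer DNAJC10 probe did not show this difference (0.08 ± 0.14, not called).

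The 8 genes of ER-associated degradation held 2 of the 5 members called. EDEM2, a mannosidase-like protein that takes part in the trimming that commits glycoproteins to degradation, had log2 signals of 8.31, 8.32 and 8.37 with vehicle, 8.64, 8.70 and 8.44 with DHT, 8.54, 8.42 and 8.64 with Dex 10 nM, and 8.69, 8.85 and 8.65 with Dex 100 nM. All arrays of the steroid groups lay above those of vehicle. EDEM2 rose 1.32-fold with Dex 100 nM (log2 0.40 ± 0.08, limma adjusted p = 0.00406), with differences of 0.26 ± 0.08 with DHT (limma adjusted p = 0.083) and 0.20 ± 0.08 with Dex 10 nM (limma adjusted p = 0.273). The Dex 100 nM call held when any 1 of the 6 arrays was left out (changes of 0.34 to 0.44), and was lost with only these 6 arrays in the fit (limma adjusted p = 0.0709). With DHT a call appeared when DHT replicate 3 was left out.

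With Enz the EDEM2 signals were 8.54, 8.68 and 8.45, also above all vehicle arrays (0.22 ± 0.08, limma adjusted p = 0.537). They were 8.5, 8.48 and 8.52 with Enz and DHT, 8.58, 8.75 and 8.65 with Enz and Dex 10 nM, and 8.54, 8.58 and 8.68 with Enz and Dex 100 nM. These groups overlapped Enz alone, and the change with Enz and Dex 100 nM against Enz was 0.04 ± 0.08 (95% interval -0.13 to 0.21, limma adjusted p = 0.883). The Dex 100 nM response was smaller with Enz by 0.36 on the log2 scale (-0.36 ± 0.11), a difference that was not called (limma adjusted p = 0.561).

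EDEM1, a related lectin-like factor that hands misfolded glycoproteins to degradation, had log2 signals of 8.39, 8.32 and 8.37 with Enz and 8.92, 8.75 and 8.66 with Enz and Dex 100 nM, without overlap. It rose 1.34-fold (log2 0.42 ± 0.10, limma adjusted p = 0.0206). The call was lost without Enz and Dex 100 nM replicate 1 (0.35, limma adjusted p = 0.115) or replicate 2 (0.43, 0.0517) and without Enz replicate 2 (0.40, 0.0816) or replicate 3 (0.42, 0.0614), and with only these 6 arrays in the fit (0.123). Without Enz, EDEM1 was at 8.44, 8.58 and 8.57 with vehicle and 8.75, 8.86 and 8.65 with Dex 100 nM, a difference of 0.22 ± 0.10 (limma adjusted p = 0.263). The Enz group held its lowest mean of the 8 groups, 8.36, although Enz against vehicle was not called (-0.17 ± 0.10, limma adjusted p = 0.708). Enz with Dex 10 nM, at 8.96, 8.68 and 8.52, lay above Enz as well (0.36 ± 0.10, limma adjusted p = 0.113).

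The third member of that family, EDEM3, and the ligase and channel factors SEL1L, SYVN1, DERL1, DERL2 and DERL3 were called in 0 comparisons. DERL3 had the widest spread of group means of all members, from 5.07 with Dex 100 nM to 5.71 with Enz and Dex 100 nM. Its probe passed detection on 18 of 24 arrays, and its arrays in these groups overlapped (4.91, 5.55 and 4.73 against 5.45, 5.69 and 5.98). The difference of 0.64 ± 0.21 was not called (limma adjusted p = 0.421).

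**Figure D4:**
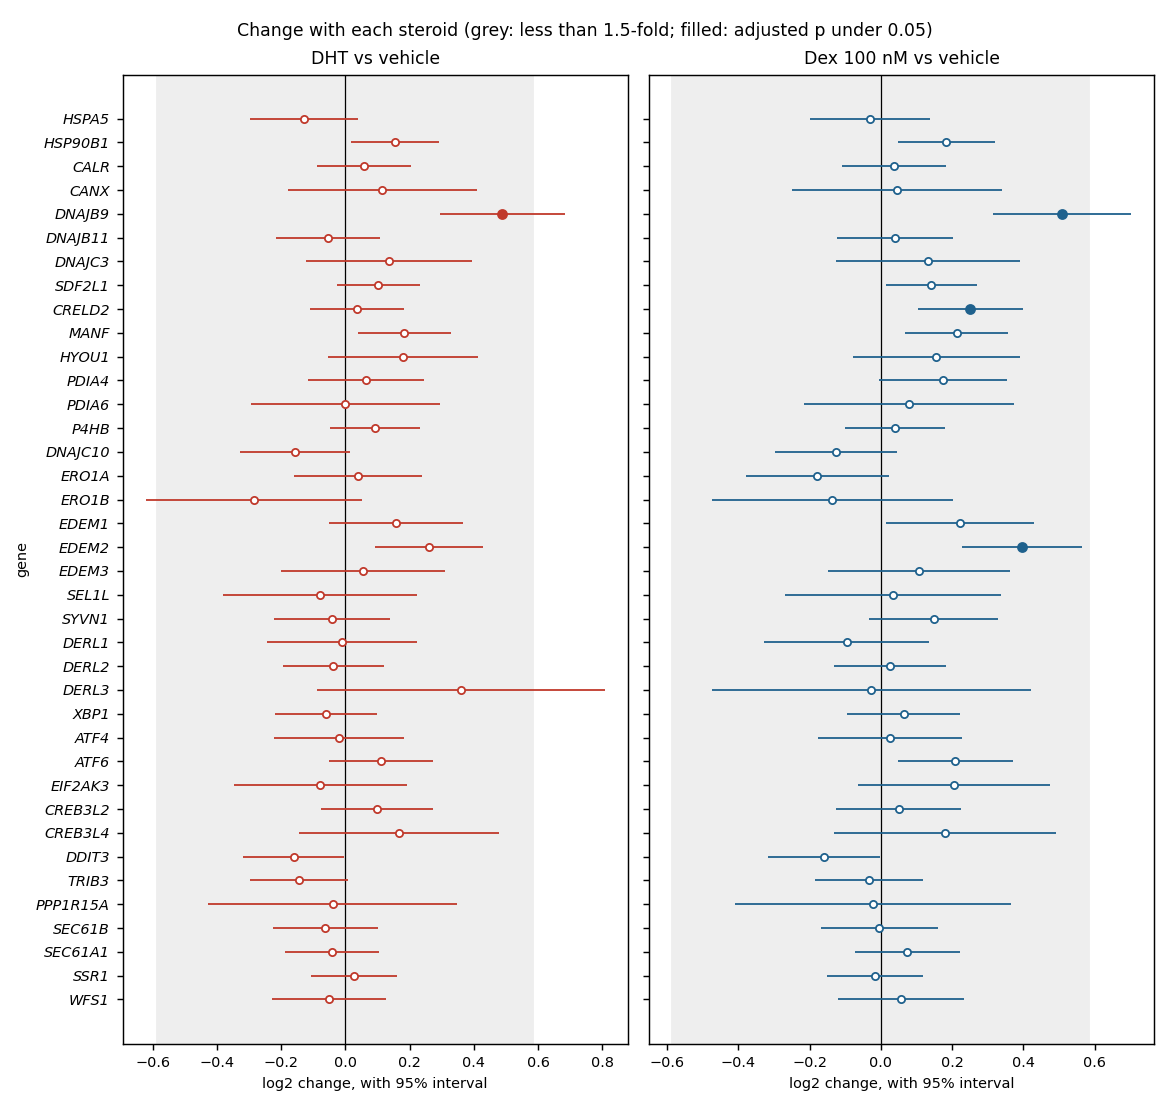
Changes of the members with DHT (left) and Dex 100 nM (right) against vehicle, on the log2 scale. Points are differences of group means, filled where called, bars are 95% intervals of the limma fit (3 arrays per group), the grey band marks changes under 1.5-fold, and rows are genes ordered by role. Most intervals cross 0, and those of DNAJB9 with DHT (0.30 to 0.68) and with Dex 100 nM (0.31 to 0.70) do not.

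Of the 7 sensors and transcription factors 6 were measured, and 0 were called in any comparison. XBP1, whose mRNA IRE1 splices to make the active factor, was at 11.53, 11.57 and 11.68 with vehicle, 11.49, 11.46 and 11.64 with DHT, 11.50, 11.62 and 11.58 with Dex 10 nM, and 11.68, 11.69 and 11.60 with Dex 100 nM. It was at 11.62, 11.51 and 11.62 with Enz, 11.55, 11.65 and 11.73 with Enz and DHT, 11.80, 11.85 and 11.70 with Enz and Dex 10 nM, and 11.61, 11.62 and 11.85 with Enz and Dex 100 nM. The 4 groups without Enz overlapped, and the changes were -0.06 ± 0.08 with DHT and 0.06 ± 0.08 with Dex 100 nM. Enz with Dex 10 nM lay above Dex 10 nM alone on every array without being called (0.21 ± 0.08, limma adjusted p = 0.568). A second XBP1 probe differed by -0.12 ± 0.10 with DHT and -0.002 ± 0.095 with Dex 100 nM, and was not called either. On this probe too Enz with Dex 10 nM lay above Dex 10 nM alone without overlap (0.18 ± 0.095, not called). The probes measure total XBP1 RNA, and splicing was not analysed here.

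ATF4, which is induced mainly through translation when PERK or a related kinase acts, was the brightest member probe. Its signals were 13.09, 13.18 and 13.29 with vehicle, 12.94, 13.26 and 13.30 with DHT, 13.05, 13.25 and 13.26 with Dex 10 nM, 13.19, 13.24 and 13.21 with Dex 100 nM, and 13.35, 13.32 and 13.25 with Enz. They were 13.34, 13.37 and 13.36 with Enz and DHT, 13.13, 13.25 and 13.37 with Enz and Dex 10 nM, and 13.03, 13.32 and 13.31 with Enz and Dex 100 nM. All arrays of Enz with DHT lay above those of DHT, by 0.19 ± 0.10 in the mean, without a call (limma adjusted p = 0.434); the other groups overlapped their controls. Of 2 further ATF4 probes, the brighter read 10.09, 10.14 and 10.27 with vehicle and 9.94, 10.00 and 9.88 with Dex 100 nM. These groups did not overlap, and the difference of -0.23 ± 0.09 was not called in the fit of every probe (limma adjusted p = 0.25), while the probe that represents the gene gave 0.02 ± 0.10. On the same further probe, Dex 10 nM lay below vehicle (-0.24 ± 0.09) and Enz with Dex 100 nM below Enz (-0.25 ± 0.09). Enz with DHT lay above DHT (0.20 ± 0.09) and Enz with Dex 10 nM above Dex 10 nM (0.22 ± 0.09). These groups did not overlap either, and none of the differences was called.

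ATF6, the sensor that is cleaved in the Golgi to release a transcription factor, was at 9.94, 10.03 and 10.00 with vehicle and 10.23, 10.23 and 10.14 with Dex 100 nM (0.21 ± 0.08, limma adjusted p = 0.153). CREB3L4, a membrane-bound factor first described as androgen-induced, was at 7.78, 7.93 and 8.04 with vehicle and 8.45, 8.05 and 7.75 with DHT. These groups overlapped, and the difference was 0.17 ± 0.15 (95% interval -0.14 to 0.48, limma adjusted p = 0.763). EIF2AK3, which encodes PERK, and CREB3L2, a factor of secretory capacity, gave changes of -0.08 and 0.10 with DHT. With Dex 100 nM the 6 genes ran from 0.03 to 0.21.

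Among the 3 stress outputs DDIT3 was called. DDIT3 (CHOP) promotes cell death under lasting stress. Its log2 signals were 8.05, 8.20 and 8.03 with vehicle, 8.04, 7.87 and 7.88 with DHT, 8.11, 8.22 and 8.22 with Enz, and 8.17, 8.22 and 8.26 with Enz and DHT. The DHT arrays lay below all Enz and DHT arrays. DDIT3 was 1.22-fold higher with Enz and DHT than with DHT (log2 0.29 ± 0.08, limma adjusted p = 0.0364). The call was lost without Enz and DHT replicate 1, 2 or 3 or without DHT replicate 2 or 3 (changes of 0.26 to 0.31, limma adjusted p = 0.0599 to 0.154), and with only the 6 arrays in the fit (0.183) or with every probe fitted (0.0708). DHT against vehicle gave -0.16 ± 0.08, and Enz with DHT against Enz gave 0.03 ± 0.08, both without a call (limma adjusted p = 0.365 and 1).

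The larger difference in DDIT3 was between the Dex 100 nM groups, where no gene of the whole table passed. It was at 8.18, 7.99 and 8.20 with Dex 10 nM and 7.90, 7.96 and 7.94 with Dex 100 nM, and at 8.39, 8.27 and 8.24 and 8.40, 8.33 and 8.18 when Enz was added to these doses. At both doses every array with Enz lay above every array without it. The differences were 0.18 ± 0.08 at 10 nM (limma adjusted p = 0.641) and 0.37 ± 0.08 at 100 nM (95% interval 0.21 to 0.53, limma adjusted p = 0.131).

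TRIB3, a pseudokinase induced by ATF4 and CHOP, was at 9.82, 9.86 and 9.85 with DHT and 10.08, 10.12 and 10.06 with Enz and DHT, with no overlap and no call (0.24 ± 0.07, limma adjusted p = 0.0777). With Enz and Dex 100 nM it was at 9.77, 9.96 and 9.78 against 10.02, 10.07 and 10.04 with Enz (-0.21 ± 0.07, limma adjusted p = 0.151). PPP1R15A (GADD34), which restores translation after stress, was dim, at 5.12 to 6.03 over the 24 arrays. It differed by -0.04 ± 0.19 with DHT (95% interval -0.43 to 0.35) and -0.02 ± 0.19 with Dex 100 nM (95% interval -0.41 to 0.36).

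The channel subunits SEC61A1 and SEC61B, the translocon-associated SSR1 and the ER membrane protein WFS1 (wolframin) were given by 4 probes. Their changes with DHT ran from -0.06 to 0.03 and with Dex 100 nM from -0.02 to 0.07, and 0 of 4 were called in any comparison. SSR1 had the narrowest range of group means of all members, 0.059 on the log2 scale. Over the 38 members the median range of the 8 group means was 0.245, against 0.289 over all genes, and the median SD between replicates was 0.098, against 0.147. Group means spread over more than 0.5 log2 for 2 members, DNAJB9 and DERL3, and for 14.5% of all genes. The members and all genes were not matched for signal level, so these differences are not read as a trait of the members. Of 11 further member probes past the filter, 0 were called in a pairwise comparison.

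The responses were also set against the promoter elements. Of the 10 members with a match, which include HSPA5, HSP90B1 and XBP1, 0 were called with DHT, with changes from -0.28 to 0.18 and a median of 0.05. Of the 26 measured members whose window has neither, 1 was called, with changes from -0.16 to 0.49 and a median of 0.00. With Dex 100 nM 1 of 10 (CRELD2) and 2 of 26 (DNAJB9 and EDEM2) rose, with medians of 0.07 and 0.05. Of the 5 members called anywhere, only CRELD2 has a match among the elements printed above, and the windows of DNAJB9, EDEM1, EDEM2 and DDIT3 hold none of the 5 motifs. This was not tested as a difference between the sets.

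Other genes of the pathway were taken as 7 lists (ATF4 and amino acid response, translocon and signal peptide, N-glycosylation, further folding factors, further degradation factors, vesicle transport to the Golgi, and stress signalling partners), with 135 measured genes that are not among the 40. With DHT 6 of the 135 rose and 2 fell, with Dex 10 nM 1 rose and 1 fell, and with Dex 100 nM 6 rose and 2 fell. These shares (5.93%, 1.48% and 5.93%) are near those of all genes (4.26%, 2.19% and 5.06%). Enz with DHT against DHT gave 1 higher and 6 lower, Enz with Dex 100 nM against Enz 3 higher and 0 lower, and Enz alone 0 (5.19%, 2.22% and 0%, beside 3.72%, 3.4% and 0.0155% of all genes). The median change of the 135 genes was -0.01 with DHT and 0.00 with Dex 100 nM. In the translocon and signal peptide list 0 of 20 measured genes were called with DHT or with Dex 100 nM.

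The largest rise with DHT among these was in UAP1, which makes the sugar donor UDP-N-acetylglucosamine for glycosylation. Its log2 signals were 11.16, 11.02 and 11.16 with vehicle, 11.85, 12.05 and 11.97 with DHT and 11.25, 11.27 and 11.27 with Enz and DHT; the DHT arrays lay above all others. UAP1 rose 1.79-fold (log2 0.84 ± 0.10, limma adjusted p = 6.24e-06) and was 1.62-fold lower with Enz added (limma adjusted p = 8.34e-05). SEC24B, a cargo subunit of the COPII coat, rose 1.56-fold with DHT (0.64 ± 0.10, limma adjusted p = 0.000224) and PDIA5, a disulfide isomerase, 1.21-fold (0.28 ± 0.08, limma adjusted p = 0.0416). VEGFA, an angiogenic factor that is also a target of the stress response, rose 1.42-fold (0.50 ± 0.13, limma adjusted p = 0.0354).

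ATF3, a stress-induced factor downstream of ATF4, was at 7.75, 7.84 and 7.82 with vehicle and 8.27, 8.23 and 8.38 with DHT, and rose 1.40-fold (0.49 ± 0.10, limma adjusted p = 0.00295). TNFRSF10B, the death receptor DR5 and a CHOP target, rose with DHT (0.67 ± 0.09, limma adjusted p = 5.15e-05) and with Dex 100 nM (0.51 ± 0.09, limma adjusted p = 0.00104), and with Enz and Dex 100 nM against Enz (0.46 ± 0.09, limma adjusted p = 0.00438). Its signals were 10.19, 10.13 and 10.24 with vehicle, 10.96, 10.86 and 10.76 with DHT and 10.74, 10.75 and 10.61 with Dex 100 nM, with vehicle below both. DDIT3 itself differed from vehicle by -0.16 ± 0.08 with either steroid, without a call (limma adjusted p = 0.365 and 0.293).

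DDIT4 (REDD1), an inhibitor of mTOR signalling that is an ATF4 target and also a known glucocorticoid target, moved in opposite directions with the steroids. Its signals were 10.94, 10.91 and 10.84 with vehicle, 10.62, 10.49 and 10.66 with DHT, 11.32, 11.27 and 11.49 with Dex 10 nM and 11.77, 11.90 and 12 with Dex 100 nM, with no overlap between these 4 groups. It fell with DHT by 0.31 on the log2 scale (limma adjusted p = 0.0274) and rose 1.38-fold with Dex 10 nM and 1.99-fold with Dex 100 nM (limma adjusted p = 2.69e-08). The direct comparison of Dex 100 nM with DHT gave 1.30 ± 0.08 (limma adjusted p = 1.95e-09). PSAT1, an enzyme of serine synthesis and an ATF4 target, fell with DHT (-0.25 ± 0.06), Dex 10 nM (-0.26 ± 0.06) and Dex 100 nM (-0.32 ± 0.06); these 3 comparisons share the vehicle arrays.

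**Figure D5:**
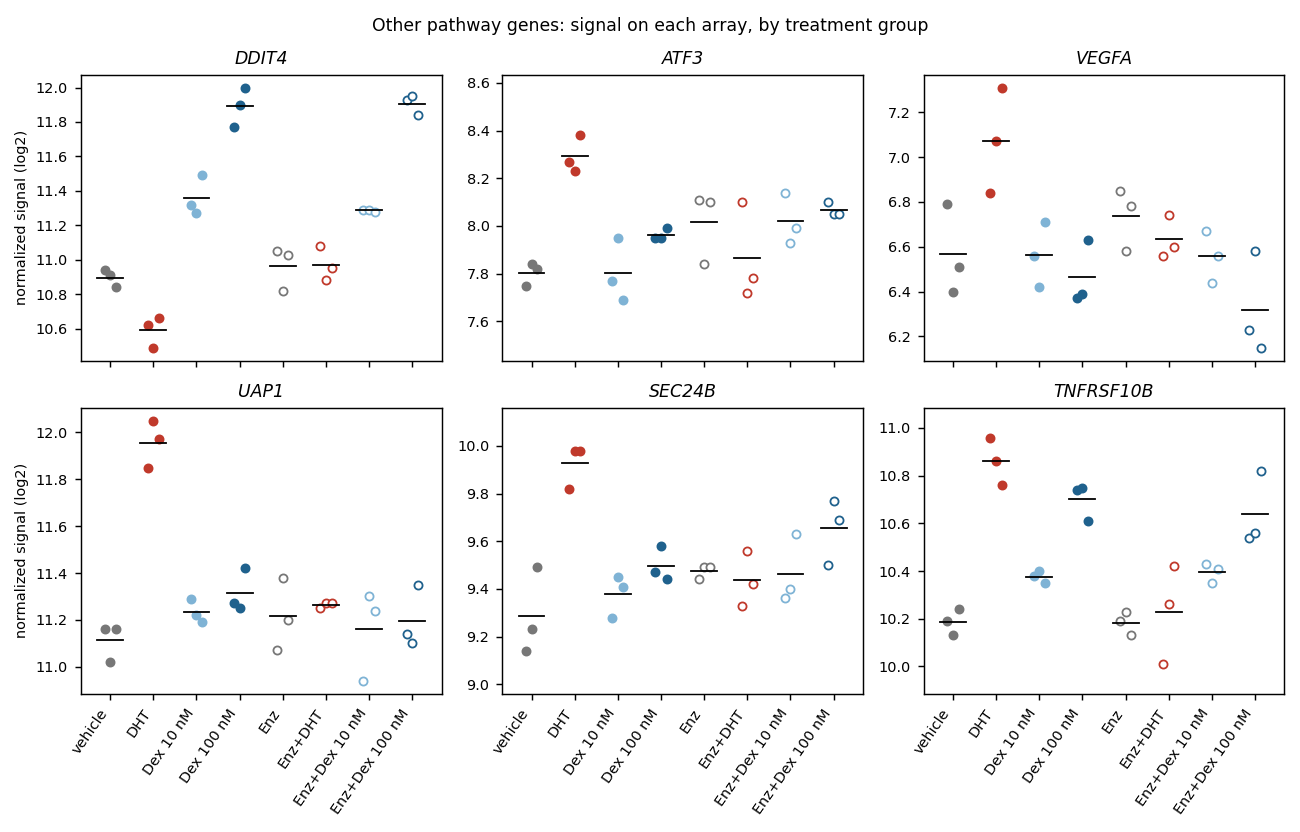
Log2 signal of 6 further pathway genes on each of the 24 arrays. The horizontal axis gives the 8 treatment groups, points are arrays (filled without Enz, open with Enz) and bars are group means of 3 arrays. UAP1, SEC24B, ATF3 and TNFRSF10B are high with DHT and not with Enz and DHT, and DDIT4 rises with Dex with or without Enz.

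With Dex 100 nM DNAJC1, an ER co-chaperone, rose 1.41-fold, and SELENOS, a selenoprotein of the degradation complex, rose 1.19-fold (limma adjusted p = 0.0204 and 0.0109). FAF2, a membrane adaptor that recruits the ATPase VCP, fell by 0.22 on the log2 scale (limma adjusted p = 0.0396). CEBPB, a transcription factor, and WARS1, the tryptophan tRNA synthetase, rose by 0.23 and 0.29 (limma adjusted p = 0.0226 and 0.0327); these 2 lie outside the rule for named genes and are named after their values were seen. MAP3K5, a stress kinase also called ASK1, was lower with Enz and DHT than with DHT (-0.59 ± 0.14, limma adjusted p = 0.013). Between Dex 100 nM and DHT, VEGFA, SLC7A11, UAP1 and SEC24B were lower with Dex and DDIT4 and AGR3 higher; the AGR3 probe was above background on all 3 Dex 100 nM arrays and on 0 of the 3 DHT arrays.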

How the data were processed

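Total RNA of 24 cultures was labelled as biotin cRNA and read on Illumina expression beadchips, per the labels' protocols. The deposited signal intensity is the mean bead signal of a probe without normalization between arrays, with its number of beads (a count per probe) and the standard error over beads, per the file headers. Each signal also has a deposited detection p-value, which on this platform usually measures it against negative control beads; the headers do not say how it was made. Per the submitters' processing notes the software was GenomeStudio, with no version stated. The authors also deposited normalized intensity values without naming a method, and these were used, floored at 16, as an alternative.

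Groups came from the titles and treatment labels. Signals were background-corrected by normexp with detection p-values (offset 16), then normalized by quantiles and taken to log2 in limma 3.58.1 (R 4.3.3). A probe entered where its detection p was below 0.05 on 3 or more arrays (24607 probes); probes were named by the platform annotation where it gave 1 symbol, and each of 12895 genes was given by its brightest kept probe. All 24 arrays entered 1 fit with a mean per group (lmFit, eBayes), from which 12 pairwise comparisons and 3 interaction terms were drawn, each adjusted over all genes by Benjamini-Hochberg. Arrays give no read depth, and their number limits the precision.

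The members, the lists of further pathway genes and the tests were chosen with earlier results of these data known, so no pattern here is independent support for those. Members called in a pairwise comparison are described with their values, as are HSPA5, XBP1, ATF4 and DDIT3 in any case, and up to 5 called genes of each further list, those with the largest change, are named. Alternatives were median scaling, the normalized table, an offset of 50, detection on at least 12 arrays, every kept probe fitted, only the arrays compared, the replicate number as a block, and leaving out each array. The procedure was tested on simulated data. Its recovery of changes as small as those called in the members is not given here. Promoter windows are RefSeq sequences of GRCh38.p14.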

Additional observations from a re-analysis of the deposited data

Results flagged for a closer look

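In 4 of the further pathway genes the response to DHT differed with Enz by a test of the difference itself (the interaction term of the limma fit, adjusted over 12895 genes). UAP1 responded less with Enz by 0.80 on the log2 scale (-0.80 ± 0.14, limma adjusted p = 0.00169), its response being 0.84 without Enz. For SEC24B the difference was -0.68 ± 0.14 (limma adjusted p = 0.00859), for TNFRSF10B -0.63 ± 0.13 (limma adjusted p = 0.00859) and for ATF3 -0.63 ± 0.13 (limma adjusted p = 0.0121). In each of these 4 genes every DHT array lay above every array of Enz with DHT. The term also takes in the difference of Enz from vehicle, and for SEC24B and ATF3 it was larger than the DHT response without Enz. ATF3 was at 8.11, 7.84 and 8.10 with Enz and 7.75, 7.84 and 7.82 with vehicle. SEC24B was at 9.44, 9.49 and 9.49 with Enz and 9.14, 9.23 and 9.49 with vehicle.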

How the results depend on the processing

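Of 104 recomputed changes of called members, 80 kept their call, 24 lost it and 0 turned direction. The call of DNAJB9 with DHT held under all 7 alternatives and every left-out array. Those of CRELD2 and DDIT3 were lost with every kept probe fitted (limma adjusted p = 0.0832 and 0.0708), and those of CRELD2, DDIT3, EDEM1, EDEM2 and of DNAJB9 in its other 3 comparisons when the fit held only the arrays compared (0.0505 to 0.219), where fewer arrays estimate the spread. The number of members called changed by more than 1.5 times in these cases. For Dex 100 nM against vehicle it was 0 with only the arrays compared. For Enz with Dex 100 nM against Enz it was 0 with only the arrays compared and 1 to 2 with an array left out. For Enz with DHT against DHT it was 1 with every kept probe fitted, 0 with only the arrays compared and 1 to 2 with an array left out. For DHT against vehicle it was 1 to 2, EDEM2 being added without DHT replicate 3. For Enz with Dex 10 nM against Enz it was 0 to 1, EDEM1 being added without replicate 3 of the combination. Over all genes, only the arrays compared gave 290 calls with DHT (549 in the fit of all arrays), 102 with Dex 10 nM (283), 277 with Dex 100 nM (653), 233 for Enz with DHT against DHT (480), 168 for Enz with Dex 100 nM against Enz (439), 57 for Enz with Dex 10 nM against Enz (139), 120 between Dex 100 nM and DHT (337) and 14 between the Dex doses (84). Where 0 genes were called, alternatives gave 0 to 2, and the 2 calls with Enz alone were 0 under most. With Dex 10 nM leaving out an array gave as few as 176 calls, and leaving out Dex 100 nM replicate 2 gave 208 against DHT and 45 between the doses.

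The replicate numbers follow the order within groups and are not stated to mark a shared batch. Same-numbered arrays correlated at -0.03 to 0.16 in their deviations, with all 3 pairs over 0.1 in 0 of 12 comparisons, although 20 of 24 arrays had their best match in another group under the same number. With the number as a replicate block, 1 member was called for Enz with Dex 10 nM against Enz (EDEM1), and 3 each for Enz with DHT against DHT and for Enz with Dex 100 nM against Enz, TRIB3 being added to both. The block changed no other count of members. The slide as a block was not run, since the headers give no slides. Probes near background, such as those of DERL3 and ERO1B, limit what can be seen in these genes.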
